A study of Mus musculus with 2 samples.

Results

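The miR-378 family of the mouse was described here in heart tissue. Its members were taken by name from the gene annotation of the count tables, which gave 4 genes, Mir378a, Mir378b, Mir378c and Mir378d, of 2202 counted miRNA genes. The rule took them by name and used no measured value, but it was set with earlier results of these data known. The tissue was heart of adult male mice aged 18 to 20 months of the hybrid strain B6CASTF1/J, with no treatment named. Small RNA was sequenced in 2 libraries of 1 group, biological replicates 1 and 2, with a size range under 30 per the labels. The libraries have separate biosample records and 1 donor record, so SDs measure the spread between these 2 libraries, which may be technical, and the p-values of the binomial test cover counting error only. There is no second condition, and the comparisons are between members, between strands, with other miRNA genes and between the libraries.

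MicroRNAs (miRNAs) are short RNAs cut from the arms of hairpin precursors. Bases 2 to 8 of the mature strand, the seed, pair with target messages and lead to their repression. Mir378a lies within Ppargc1b, the gene of PGC-1β, a coactivator that turns on genes of mitochondrial energy production, and is known from heart, skeletal muscle, liver and brown fat. In mice, the miRNAs of this hairpin are known to repress Crat, an enzyme of fatty acid metabolism, and Med13, a subunit of the Mediator complex. In rodent heart muscle cells, miR-378 is known to restrain growth signalling through the Igf1 receptor.

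The mature and hairpin sequences of 3 of the 4 members, Mir378b, Mir378c and Mir378d, were found in the RefSeq table (build GRCm38.p6), and Mir378a was not. The mature strands are shown first, because they tell how far reads of 1 paralog can be told from those of another. They are written 5′ to 3′ with the seed in capitals.
Mir378b: cUGGACUUggagucagaaga
Mir378c: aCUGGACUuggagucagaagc
Mir378d: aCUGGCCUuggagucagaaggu
All 3 strands hold the run CUUGGAGUCAGAAG of 14 bases, which was found in 3 of the 1005 hairpins of that table, those of these same genes. Mir378b and Mir378c share a longer run of 19 bases. With positions counted from 1 at the 5′ end of the first-named strand, Mir378b and Mir378c differ over their aligned bases by A20C alone, and Mir378b also starts 1 base later. Mir378c and Mir378d differ by A6C, which lies in the seed, and by C21G near the 3′ end. The seeds as annotated were therefore UGGACUU for Mir378b, CUGGACU for Mir378c and CUGGCCU for Mir378d, and each was held by 1 of the 1738 mature sequences in the table. These counts leave out Mir378a, so whether it shares a seed or the run of 14 bases with a paralog was not tested.

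The hairpins are shown next because the mature strand, in capitals here, does not sit on the same arm in each of them.
Mir378b: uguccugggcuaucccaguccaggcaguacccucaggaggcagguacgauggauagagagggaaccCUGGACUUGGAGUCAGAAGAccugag
Mir378c: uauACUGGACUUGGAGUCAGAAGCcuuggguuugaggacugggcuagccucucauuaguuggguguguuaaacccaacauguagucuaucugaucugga
Mir378d: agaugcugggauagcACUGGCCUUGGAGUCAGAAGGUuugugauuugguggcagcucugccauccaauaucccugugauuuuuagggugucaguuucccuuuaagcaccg
The annotated strand of Mir378b takes bases 67 to 86 of 92, on the 3′ arm. Those of Mir378c (bases 4 to 24 of 99) and Mir378d (bases 16 to 37 of 110) lie on the 5′ arm. No pair of hairpins shares a longer run than their mature strands do, 19 bases for Mir378b and Mir378c and 14 bases for each pair with Mir378d. The predicted minimum free energy, a measure of how firmly a hairpin folds, was -0.34 kcal/mol per base for Mir378b, -0.32 for Mir378d and -0.27 for Mir378c. The median over the 1005 hairpins was -0.41, so all 3 were predicted to fold less firmly than the middle hairpin, and 6.77% of hairpins had a weaker predicted fold than Mir378c.

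Of the 4 genes, Mir378a alone lies in a host gene on the host's own strand. Mir378a (ENSMUSG00000105200.1, chromosome 18, 61397835 to 61397900, minus strand, GRCm38) lies in intron 1 of all 3 annotated Ppargc1b transcripts. It lies 2531 bases from the 5′ end of the gene, 2.47% of the way along its 102296 bases, and 2389 bases after exon 1. Mir378b (ENSMUSG00000092985.1, chromosome 11, 88352773 to 88352864, plus strand) lies opposite intron 11 of the 2 annotated Msi2 transcripts that span it. Msi2 encodes an RNA-binding protein of the Musashi family. Mir378c (ENSMUSG00000099036.1, chromosome 14, 46954830 to 46954928, minus strand) lies opposite an intron of Samd4, the gene of an RNA-binding repressor of translation, numbered 1, 2 or 3 depending on the transcript. Mir378d (ENSMUSG00000098756.1, chromosome 10, 126710282 to 126710391, minus strand) overlaps no annotated gene, and the nearest is the noncoding gene Gm47966 on the same strand, 3614 bases away. Messenger RNA was not measured, so levels of Ppargc1b, Msi2 and Samd4 are not known here.

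**Figure D1:**
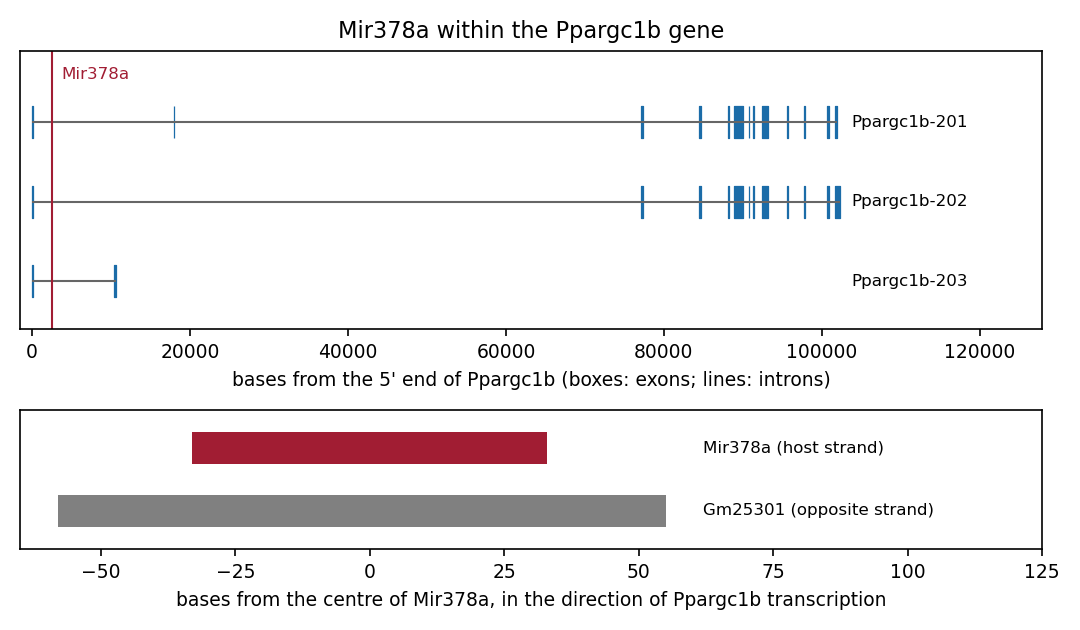
Map of Mir378a in Ppargc1b. The upper panel draws the 3 annotated transcripts by distance in bases from the 5′ end of the gene, with Mir378a 2531 bases in, within the first intron of each; the lower panel shows that the 66 bases of Mir378a lie wholly within the 113 bases of Gm25301, a miRNA gene annotated on the opposite strand.

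Depth and tissue were checked before the members were read. Replicate 1 held 3037063 reads on the sense strand of miRNA genes and replicate 2 held 5284446, and 321 genes (14.6%) had at least 10 reads in both. Levels are given as reads per 1000000 such reads (CPM), and a count of 0 allows up to 3 reads, or 0.988 and 0.568 CPM in replicates 1 and 2. The 7 cardiac muscle markers together took 1.08% and 1.48% of reads in replicates 1 and 2, none of them at 0, against 0.00300% and 0.00127% for the liver marker Mir122 and 0.00362% and 0.00755% for the 4 matched brain markers. Most of the cardiac reads fell on Mir208a (5184 and 9154 CPM) and Mir499 (5559 and 5487 CPM), with Mir208b at 50.0 and 116 CPM. The counts of Mir1a-1 (21 and 20 reads), Mir1a-2 (84 and 141), Mir133a-1 (8 and 31) and Mir133a-2 (14 and 45) were low, against 91 and 67 reads for Mir122. These genes are named as numbered copies, and reads mapped to several places entered no gene's count. How far this lowers their counts was not tested, so the counts do not show that these miRNAs are scarce in heart. Of the 7 marker lists, those of red blood cells (0.717% and 0.122%) and epithelium (0.0148% and 0.367%) differed most in fold between the libraries. A marker of brown fat, another tissue rich in Mir378a, was not among the lists.

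Mir378a was the most abundant counted miRNA gene in each library. It had 425976 reads (140259 CPM) in replicate 1 and 636547 reads (120457 CPM) in replicate 2, with a mean of 130358 ± 14002 CPM (SD, n = 2). Its share of miRNA reads was 14.0% in replicate 1 (Wilson 95% bounds 14.0 and 14.1) and 12.0% in replicate 2 (bounds 12.0 and 12.1), for a mean of 13.0% ± 1.40 (SD, n = 2). These intervals cover counting error only. No molecular identifiers are recorded, so duplicate reads of 1 molecule would be counted as separate reads. Of all mapped reads, which include those mapped to several places, Mir378a took 5.58% and 4.95%. In a whole tissue, more cells that make a miRNA and more of it per cell cannot be told apart.

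The other 3 members together held 790 reads in replicate 1 and 1222 in replicate 2. Their summed share was 0.0260% (Wilson 95% bounds 0.0243 and 0.0279) in replicate 1 and 0.0231% (bounds 0.0219 and 0.0245) in replicate 2. Mir378d, the intergenic member, had 665 and 945 reads in replicates 1 and 2, or 219 and 179 CPM. Mir378c, opposite Samd4, had 101 and 164 reads, or 33.3 and 31.0 CPM. Mir378b, opposite Msi2, had 24 and 113 reads, or 7.90 and 21.4 CPM. The order Mir378a, Mir378d, Mir378c, Mir378b was the same in both libraries, and no member's pair of CPM values overlapped that of the next. All 4 members passed 10 reads in both libraries, against 321 of all 2202 counted genes (14.6%) with at least 10. By mean CPM the 4 genes ranked 1, 113, 190 and 232 of 2202.

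**Figure D2:**
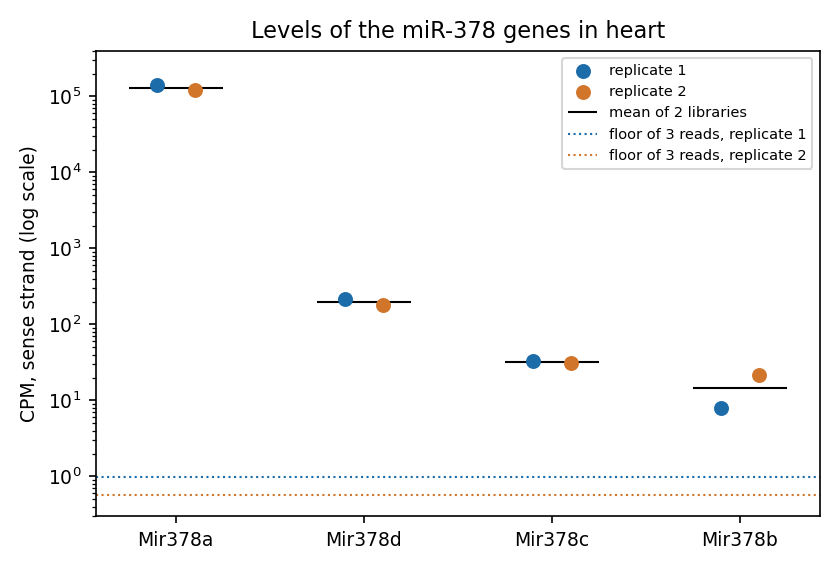
CPM (log scale) of the 4 miR-378 genes in each library, with points for libraries, black lines for their mean and dotted lines for the level of 3 reads. Mir378a sits near 130358 CPM, Mir378d near 199, Mir378c near 32.1 and Mir378b near 14.6, and only the points of Mir378b are visibly apart.

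Mir378a held 99.8% of family reads in both libraries. Mir378d took 0.156% of them in replicate 1 (Wilson 95% bounds 0.144 and 0.168) and 0.148% in replicate 2 (bounds 0.139 and 0.158). Mir378a exceeded Mir378d by 641 times in replicate 1 (exact 95% Clopper-Pearson interval 594 to 692) and 674 times in replicate 2 (632 to 719). As a log2 ratio this was 9.36 ± 0.05 (SD, n = 2), and the intervals of the libraries overlapped. Mir378a exceeded Mir378c by 4218 times in replicate 1 (3471 to 5178) and 3881 times in replicate 2 (3331 to 4551), a log2 ratio of 11.98 ± 0.08, again with overlapping intervals. Against Mir378b the ratio was 17749 in replicate 1 (11929 to 27702) and 5633 in replicate 2 (4685 to 6835), a log2 ratio of 13.29 ± 1.17, and here the intervals did not overlap. With 2 libraries, the smallest p of an exact sign-flip test is 0.5, and none was run. All 3 ratios were many times larger than the spread between the libraries.

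Among the paralogs, Mir378d exceeded Mir378c by 6.58 times in replicate 1 (exact interval 5.33 to 8.20) and 5.76 times in replicate 2 (4.88 to 6.84). Mir378d exceeded Mir378b by 27.7 times in replicate 1 (18.5 to 43.6) and 8.36 times in replicate 2 (6.87 to 10.3). Mir378c exceeded Mir378b by 4.21 times in replicate 1 (2.68 to 6.87) and 1.45 times in replicate 2 (1.14 to 1.86). Each ratio stayed above 1 in both libraries, and those with Mir378b were the ones whose intervals did not overlap. Reads with more than 1 genomic match entered no gene's count, and they were 1.27 and 1.20 times as many as the counted miRNA reads in replicates 1 and 2. Mir378b and Mir378c share 19 bases of their mature strands, and how many of their reads were left out was not tested. How well Mir378a reads can be told from reads of the paralogs was not tested either, and the ratios of Mir378a to the paralogs depend on it.

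**Figure D3:**
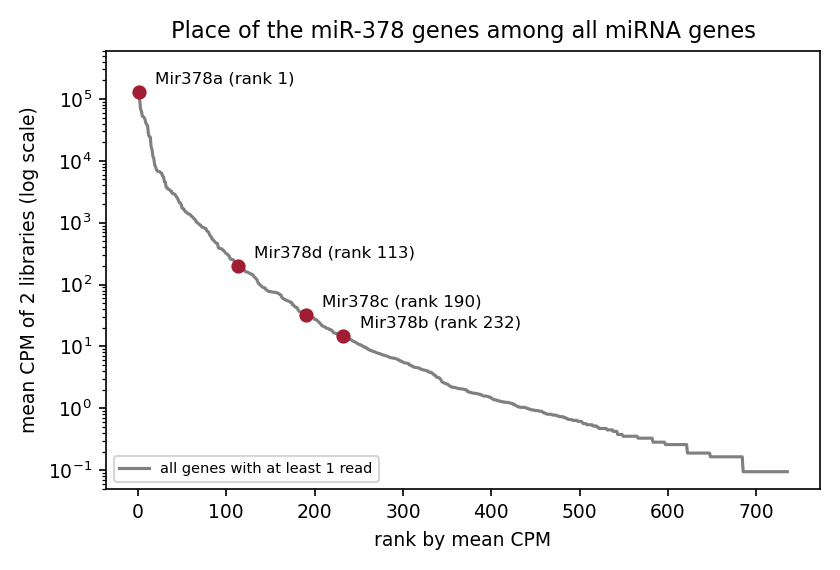
Mean CPM of the 2 libraries (log scale) against rank for all miRNA genes with at least 1 read, with the 4 miR-378 genes as red points. Mir378a heads the curve at rank 1, while Mir378d, Mir378c and Mir378b lie at ranks 113, 190 and 232.

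The genes ranked after Mir378a were Mir126a, of blood vessel endothelium, and the let-7 genes Mirlet7b and Mirlet7i, which are also the 3 genes closest to it in level over both libraries. The level of Mir126a was 85244 and 109823 CPM in replicates 1 and 2. Mir378a exceeded it by 1.65 times in replicate 1 (exact 95% interval 1.64 to 1.65) and by 1.10 times in replicate 2 (1.09 to 1.10). The CPM ranges of Mir378a and Mir126a over the libraries did not overlap, but their log2 ratio, 0.43 ± 0.41 (SD, n = 2), was about as small as its spread. Mir378a exceeded Mirlet7b by 1.91 and 1.90 times in replicates 1 and 2, and Mirlet7i by 2.14 and 1.94 times. Rank 1 is therefore narrow over Mir126a and clearer over the let-7 genes, among reads that were counted for 1 gene. Reads mapped to several places entered no gene's count, and were 1.27 and 1.20 times the counted miRNA reads in replicates 1 and 2. Whether another gene would rank above Mir378a with those reads was not tested.

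Likeness of the other members was measured by the larger of the 2 libraries' absolute log2 differences in CPM from the member. The closest to Mir378d were Mir1249 (0.06), Mir1306 (0.17) and Mir24-2 (0.18). Those closest to Mir378c were Mir431 (0.12), Mir467c (0.12) and Mir5099 (0.15), and those closest to Mir378b were Mir298 (0.25), Mir201 (0.27) and Mir7-1 (0.30). Over 2 libraries such likeness says only that the levels are similar. Mir24-2, Mir7-1 and, named further on, Mir26a-2 have close copies elsewhere in the genome, so their counts are uncertain. Mir467c is among several genes named Mir467, and how many of its reads were left out as mapped to several places was not tested.

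The reading of Mir378a depends on strand. On the sense strand it had 425976 and 636547 reads in replicates 1 and 2, and on the other strand it had 0 in both, which allows at most 0.000704% and 0.000471% as many. In the deposited column that ignores strand it also had 0 reads in both. Gm25301 (ENSMUSG00000093026.1, chromosome 18, 61397813 to 61397925, plus strand) covers Mir378a from the opposite side, and that column is the only one with ambiguous reads. On its own sense strand Gm25301 had 1 read in replicate 1 and 0 in replicate 2. The column for its other strand held 425976 reads in replicate 1, exactly the Mir378a count, and 636551 in replicate 2, 4 more than the Mir378a count.

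Mir378a reads equalled 54.3% of the ambiguous reads of the column that ignores strand in replicate 1 (784246) and 46.6% in replicate 2 (1365026). Of the 2202 genes, 64 are overlapped by another miRNA gene that is annotated on the other strand. Summed over those 64 genes, the sense reads missing from that column came to 784246 and 1365026, the same as its ambiguous reads. Mir126a (37 and 38 reads against 258891 and 580354 on the sense strand) and Mir191 (0 and 0 against 32918 and 58779) were next by level. Mir378b, Mir378c and Mir378d have no miRNA gene opposite them. Their counts were identical in the sense column and the one that ignores strand, with 0 reads on the other strand.

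**Figure D4:**
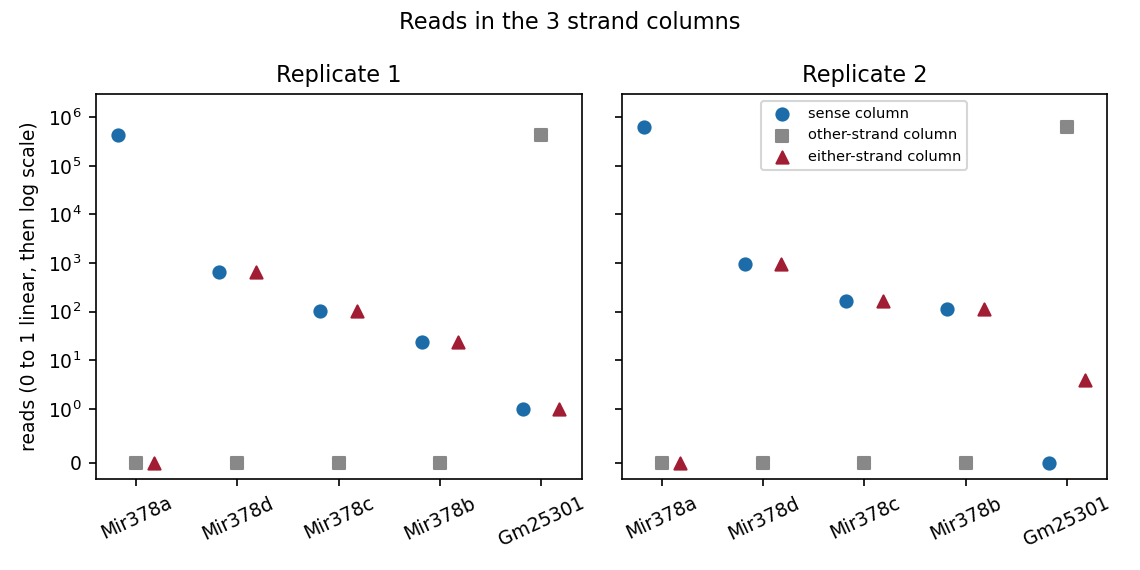
Reads of the 4 members and of Gm25301 in the sense, other-strand and either-strand columns (linear from 0 to 1, then log scale), 1 panel per library. Mir378a is at 425976 and 636547 reads in the sense column and at 0 in the either-strand column, whereas the other members have equal counts in both.

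Placed by where genes lie, the 733 miRNA genes inside an intron of a protein-coding gene on the same strand, Mir378a among them, held 41.3% and 38.3% of miRNA reads in replicates 1 and 2. Without Mir378a the class held 27.3% and 26.3% of miRNA reads. Of these 733 genes 117 (16.0%) had at least 10 reads in both libraries, and Mir378a had the highest mean level. The class of Mir378b and Mir378c, the 307 genes that overlap a protein-coding gene on the opposite strand only, held 5.05% and 4.19% of the reads, with 27 detected genes (8.79%) led by Mir99a. In this class 14 genes had a higher mean level than Mir378c, whose 32.1 CPM lay next to 32.2 CPM, the median of the 27 detected genes alone. Mir378d belongs to the 916 genes that overlap no protein-coding gene, which held 41.2% and 38.7% of the reads, and 53 of them had a higher mean level. The other 246 genes touch an exon of a protein-coding gene on the same strand, held 12.4% and 18.8% of the reads and include no member.

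Other miRNAs in host introns gave a scale for Mir378a. Of a list of 19 such genes, chosen by name for known hosts, 17 had at least 10 reads in both libraries. Of all 2202 counted genes, 14.6% did. All 19 listed genes together took 10.6% and 11.2% of reads in replicates 1 and 2. Mir378a alone had more of the counted miRNA reads, 14.0% and 12.0%. The highest of the list were Mir139 in Pde2a (38227 ± 3418 CPM), Mir26b in Ctdsp1 (26301 ± 7195 CPM), Mir149 in Gpc1 (24644 ± 4315 CPM) and Mir208a in the cardiac myosin gene Myh6 (7169 ± 2807 CPM; SD, n = 2 for each). Mir378a exceeded Mir208a by 27.1 and 13.2 times in replicates 1 and 2, and Mir499, of the myosin gene Myh7b, by 25.2 and 22.0 times. The ratios to the myosin miRNAs were above 10 in both libraries, and the ratio to Mir208a was the less even of them.

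Of a list of 20 miRNAs known in lipid, glucose or mitochondrial metabolism, 19 were matched by name (Mir696 was not). Of these 19, 15 had at least 10 reads in both libraries, against 14.6% of all 2202 counted genes. Together the 19 took 2.69% of reads in replicate 1 and 5.72% in replicate 2, less than Mir378a alone in each. The highest were Mir22, Mir27b, Mir34a and Mir214, with 24219, 6354, 3675 and 2871 CPM on average. Both lists were set with earlier results of these data known. They also hold genes named as numbered copies, such as Mir103-1 (0 and 11 reads) and Mir103-2 (8 and 65 reads). Reads mapped to several places entered no gene's count, and how far this lowers the sum of either list was not tested.

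Within 1000000 bases of Mir378a, the abundant neighbours were Mir143 and Mir145a, the smooth muscle pair, on the same strand 251296 and 249925 bases away. Mir143 had 43725 and 38639 CPM in replicates 1 and 2, and Mir378a exceeded it by 3.21 and 3.12 times. Mir145a had 1968 and 2001 CPM. The others there had few reads: Mir5107 had 5 and 11, Mir6983 had 1 and 6, and Mir6982 and Mir7220 had 0. Near Mir378b lies Mir142, of blood cells, with 1277 and 1848 reads, 53.2 and 16.4 times those of Mir378b, and its opposite-strand partner Mir142b had 0. Near Mir378d, Mir26a-2 had 128 and 573 reads, and Mir546 and Gm22183 had 0. No counted miRNA gene lies within that distance of Mir378c.

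Between the libraries, 3 of the 4 members differed by more than counting error, with 52.8% of the 424 genes tested called in the same way. The test was an exact two-sided binomial test of each gene's reads given the library totals, Benjamini-Hochberg adjusted over the 424 genes whose reads summed to 10 or more. It compares 2 libraries and not conditions. By direction, 2 members were higher in replicate 1 (background 21.9%) and 1 was higher in replicate 2 (background 30.9%). With 4 genes and more than 1 in 2 of all genes called, this is no result about the members. With the spread between libraries included, by edgeR's exact test with a common dispersion, 0 of 4 were called, and 12 of the 424 genes (2.83%) were. That dispersion was estimated from the same 2 libraries, so a difference of the size usual between them cannot be called in that test, and a missing call says nothing of whether a member differed. Of those 12, replicate 1 had the higher level at 2 (0.472% of tested genes) and replicate 2 at 10 (2.36%). None of the 4 had an unadjusted p under 0.05 in that test (lowest 0.127, for Mir378b), while 3 of 4 did in the binomial test. The share of all tested genes at that unadjusted cut was not counted, so these counts are no result about the members.

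Mir378a had a log2 ratio of replicate 1 over replicate 2 of 0.22 (exact 95% interval 0.21 to 0.23; adjusted p = 1 in edgeR's exact test). At its depth, even this small a difference lay beyond counting error. Mir378d had a ratio of 0.29 (0.15 to 0.44), with an adjusted p of 0.000200 in the exact binomial test and of 1 in edgeR's exact test. Mir378c, at 0.10 (-0.27 to 0.47), was not called, with an adjusted p of 0.724 in the exact binomial test, and its interval spans 0. In size these 3 ratios lay within the median absolute log2 ratio of the 321 genes with at least 10 reads in both, 0.38.

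Mir378b had the largest absolute ratio of the 4. Its 24 reads in replicate 1 and 113 in replicate 2 gave a log2 ratio of -1.44 (exact 95% interval -2.14 to -0.79), with an adjusted p of 5.83e-06 in the exact binomial test and of 0.907 in edgeR's exact test. A log2 ratio within 1 was seen at 261 of the 321 genes (81.3%) but not at Mir378b, and 13 of the 321 had a lower ratio. Among 74 genes within 2-fold of its mean level, 8 had a larger absolute ratio. The biological coefficient of variation over all genes with at least 10 reads in both, the spread between libraries beyond counting, was 40.8%. The epithelial markers summed were also higher in replicate 2, mostly through Mir205 (2.30 and 1963 CPM in replicates 1 and 2) and Mir200c (82.6 and 1652 CPM). Mir141 and Mir200a were higher in replicate 2 as well. Mir200b (32.9 and 21.6 CPM) and Mir429 (19.4 and 12.1 CPM) were higher in replicate 1, as were the red blood cell markers. The part of either list in the Mir378b ratio was not tested.

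In the 2 lists named above, most tested genes differed beyond counting error, more of them towards replicate 2. Of all 424 tested genes, 52.8% were called. Such a call depends on read number, and whether other genes of like level were called as often was not tested. Of the 19 tested metabolism genes, 2 were higher in replicate 1 and 11 in replicate 2 and 6 were not called, with a median log2 ratio of -0.68. Of the 19 intronic genes, 4 were higher in replicate 1 and 13 in replicate 2 and 2 were not called, with a median of -0.53. Of all 424 tested genes, 21.9% were higher in replicate 1 and 30.9% in replicate 2. Their median was -0.07, and that of the 4 members was 0.16. With edgeR's exact test, 0 of 19 metabolism genes and 2 of 19 intronic genes were called, against 12 of all 424 tested genes (2.83%). Of the metabolism genes, 3 had an unadjusted p under 0.05 in that test and 15 in the binomial test. With no share of all tested genes counted at that unadjusted cut, these counts are no result about the list. The lists share 4 genes.

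**Figure D5:**
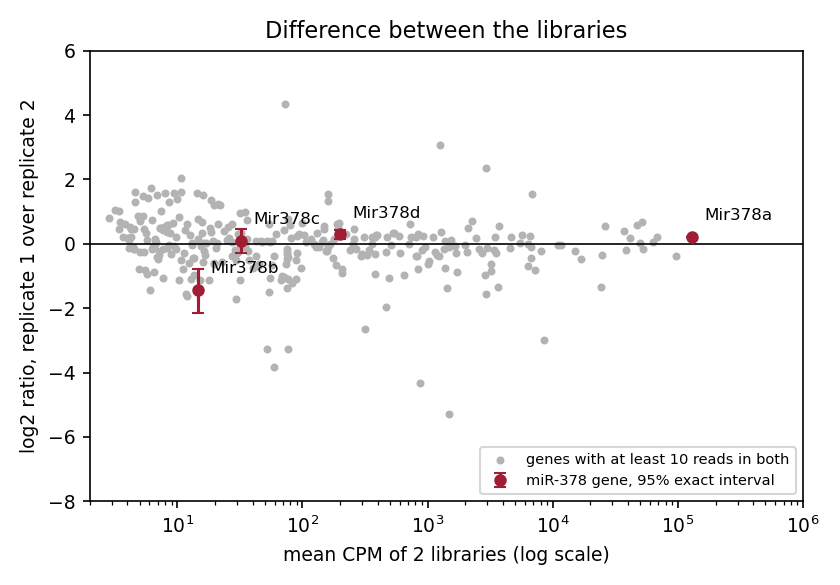
Log2 ratio of replicate 1 over replicate 2 against mean CPM (log scale) for detected genes, those reaching 10 reads in both libraries (grey) and the 4 miR-378 genes (red, with exact 95% intervals from counting error). Mir378a, Mir378d and Mir378c lie between 0.10 and 0.29, and Mir378b lies at -1.44.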

How the data were processed

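Small RNA of mouse heart was sequenced in 2 libraries. The authors deposited whole-number read counts per miRNA gene with no normalization, in columns for either strand and for each strand; per the file texts the build was mm10 and the annotation GENCODE M21. The names of the aligner and counter were not given in the sources used here. Sense was the strand whose column held the larger sum over miRNA genes, the same one in both libraries. Reads unmapped (19.4% and 34.3% of all reads in replicates 1 and 2), mapped to several places (40.7% and 32.5%) or outside miRNA genes (7.79% and 6.27%) stayed out of library sizes. CPM, Wilson and Clopper-Pearson intervals and binomial tests were computed with Python 3.11.15 and scipy 1.17.1, exact tests with edgeR 4.0.16 (TMM; common dispersion of genes reaching 10 reads in each library), size factors with DESeq2 1.42.0, and folds with ViennaRNA 2.7.2 at 37 °C. The threshold was 0.05. The binomial test was checked on simulated data. Counts of 0 were set to 0.5 reads in log2 ratios between libraries. Names and positions came from GENCODE for all 2202 genes and sequences from RefSeq. Of the brain markers, 3 names (Mir124-1 to Mir124-3) were not matched and have no value. Named genes were the members, genes overlapping them, sharing their seed or within 1000000 bases, the 3 genes next in rank, the 3 most alike in level to each member, and the 4 highest of each list. The members and lists were chosen with earlier results of these data known. Alternatives were the either-strand column, other denominators, scalings, filters and tests, and each library alone.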

Additional observations from a re-analysis of the deposited data

Results flagged for a closer look

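Reads that mapped to several places numbered 3857758 in replicate 1 and 6355706 in replicate 2, and how many came from the miR-378 genes is not known. In replicate 2, 4 minus-strand reads lay within Gm25301 but were not counted for Mir378a, above the 3 reads that a count of 0 allows, against 0 such reads in replicate 1.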

How the results depend on the processing

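In the either-strand column Mir378a fell to 0 reads, which put its share at 0% and its rank at 707, tied with the other genes at 0. With Mir378a at 3 reads, the log2 ratio over Mir378b was at most -4.12, over Mir378c at most -5.42 and over Mir378d at most -8.05 in that column, the reverse of the sense column; its reads were counted as ambiguous there. With all mapped reads as the denominator the share was 5.26%. Leaving out a library gave shares of 12.0% to 14.0%, rank 1 both times, and log2 ratios of 12.46 to 14.12 over Mir378b, 11.92 to 12.04 over Mir378c and 9.32 to 9.40 over Mir378d. With edgeR's exact test and the common dispersion 12 genes differed between the libraries in place of 224, and the calls of Mir378a (0.23), Mir378b (-1.42) and Mir378d (0.31) were lost; its dispersion comes from the same 2 libraries, so a difference of usual size between them cannot be called. TMM, DESeq2 size factors, no filter, a filter at 100 reads, the either-strand column and, chosen after seeing the data, library totals without Mir378a gave between 184 and 228 calls, and each tested member kept its direction and call. Mir378a could not be tested in the either-strand column, and no ratio between libraries can be had with 1 library left out. No paired analysis was possible because there is 1 group. Depth limits Mir378b most, with 24 reads in replicate 1.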
